A study of Mus musculus with 28 samples.

Results

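The G2 and mitosis genes are 48 named mouse genes whose products carry a cell from the end of DNA replication through division. They were taken as the probes whose RefSeq annotation belongs to a fixed list of gene symbols, and all 48 were found, on 66 probes, among 37208 genes and unnamed transcripts on the array. By role, 6 are cyclins, their kinase and its activators, 6 are a transcription factor and markers of proliferation, 8 are mitotic kinases and their partners, 6 act in the spindle checkpoint and anaphase, 7 are kinetochore and centromere proteins, 9 are spindle proteins and motors, and 6 act in cytokinesis. The rule uses no measured value, but the list was chosen with earlier results of these data known.

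Cyclins bound to the kinase Cdk1 drive entry into mitosis, the kinases of the Polo, Aurora and Bub families build and supervise the spindle, and the anaphase-promoting complex, activated by Cdc20, releases sister chromatids by destroying securin. Most of these genes are transcribed late in the cell cycle and are silent in resting cells, under the control of complexes that bind a short promoter element called the cell cycle homology region and of the factors NF-Y and Foxm1. Adult hepatocytes are largely at rest, and phenobarbital (PB), a barbiturate that activates the nuclear receptor CAR, is known as a mitogen of the rodent liver.

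Liver RNA of 28 male mice was measured, each animal on its own 1-colour array, in separate feeding experiments on 3 strains. CD-1 mice, an outbred stock, had 0 or 1500 ppm PB in the diet for 7 days, with 4 animals a group. The hCAR/hPXR mice, which carry the human forms of CAR and PXR, had 0 or 1000 ppm for 7 days, with 7 animals a group. The C3H mice (C3H/HeNCrlCrlj) had 0 or 500 ppm for 27 weeks, with 3 animals a group, and both of their groups had first been injected once with the liver carcinogen diethylnitrosamine at 90 mg/kg. No age is given in the labels used here, nor is it said whether the C3H liver was taken from a tumour or beside one. Strain, dose, duration and the carcinogen differ together between the experiments, so a difference between strains cannot be assigned to any of them.

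A level below is the log2 processed signal of a gene's brightest probe with the array's 75th percentile set to 0, so it orders animals for 1 gene and not genes among themselves. A gene was tested in a strain when the scanner software marked it well above background on every array of at least 1 of the groups. A gene rose or fell where limma's p-value, adjusted by Benjamini-Hochberg over all genes tested in that strain, was under 0.05; changes are PB minus control with their standard error. Where no control array was well above background, a fold is given as "at least", from the higher of each control array's detection limit and its own signal. The number of arrays limits the precision. The liver's CAR-responsive genes rose in all 3 experiments: Cyp2b10, a drug-metabolising P450, by 6.66 in CD-1, 4.49 in hCAR/hPXR and 5.74 in C3H mice, and Gadd45b, a stress gene, by 2.06, 3.05 and 2.99. The 5 hepatocyte markers on the array (Alb, Apoa1, Apob, Ttr and Fgb) were well above background on all 28 arrays. The bright end of the signal was weaker on the arrays of CD-1 mice. Their 99th percentile lay at 4019 to 6490, against 22576 to 48010 in the other strains. The share of probes well above background was 46.2% to 70.6% there, 46.6% to 58.6% in hCAR/hPXR and 41.3% to 46.0% in C3H mice. All CD-1 controls lay on 1 slide and all CD-1 PB animals on another, so treatment and slide cannot be told apart there. For hCAR/hPXR mice 1 slide held the 7 controls and PB animal 1, and another held PB animals 2 to 7. The C3H arrays shared 1 slide.

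The promoters of 6 members are shown because late cell cycle genes are known to share promoter elements. Each is the RefSeq window of 300 bases, from 250 before to 50 after the annotated gene start, in build GRCm38.p6, written 5′ to 3′ on the gene's strand. Capitals mark the cell cycle homology letters TTTGAA or TTCGAA and the NF-Y letters CCAAT, on either strand, so that TTCAAA and ATTGG are also in capitals.
Cdk1 (chr10:69352863-69353162, minus strand): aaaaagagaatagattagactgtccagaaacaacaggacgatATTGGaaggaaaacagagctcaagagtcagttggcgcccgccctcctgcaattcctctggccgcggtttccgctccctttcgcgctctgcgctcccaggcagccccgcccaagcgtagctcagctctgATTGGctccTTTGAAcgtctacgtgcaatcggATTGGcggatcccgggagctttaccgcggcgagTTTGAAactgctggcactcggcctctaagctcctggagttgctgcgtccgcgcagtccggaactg
Ccnb2 (chr9:70421505-70421804, minus strand): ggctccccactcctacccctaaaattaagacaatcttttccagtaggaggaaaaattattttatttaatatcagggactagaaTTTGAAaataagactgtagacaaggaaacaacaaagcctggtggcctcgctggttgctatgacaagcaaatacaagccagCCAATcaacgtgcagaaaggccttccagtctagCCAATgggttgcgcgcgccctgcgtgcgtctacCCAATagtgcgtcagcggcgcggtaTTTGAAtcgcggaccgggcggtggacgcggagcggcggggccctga
Cdc20 (chr4:118437294-118437593, minus strand): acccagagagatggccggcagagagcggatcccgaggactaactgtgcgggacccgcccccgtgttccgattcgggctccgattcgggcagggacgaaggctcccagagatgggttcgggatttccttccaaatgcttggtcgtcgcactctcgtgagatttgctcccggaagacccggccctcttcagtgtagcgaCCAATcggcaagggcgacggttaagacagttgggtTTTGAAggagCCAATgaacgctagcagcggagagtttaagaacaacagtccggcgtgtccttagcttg
Plk1 (chr7:122159185-122159484, plus strand): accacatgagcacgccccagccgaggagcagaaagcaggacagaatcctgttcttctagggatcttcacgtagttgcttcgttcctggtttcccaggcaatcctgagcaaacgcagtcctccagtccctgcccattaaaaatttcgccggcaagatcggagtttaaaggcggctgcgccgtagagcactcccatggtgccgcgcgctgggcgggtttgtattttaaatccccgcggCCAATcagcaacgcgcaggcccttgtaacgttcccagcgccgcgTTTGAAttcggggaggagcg
Kif11 (chr19:37376132-37376431, plus strand): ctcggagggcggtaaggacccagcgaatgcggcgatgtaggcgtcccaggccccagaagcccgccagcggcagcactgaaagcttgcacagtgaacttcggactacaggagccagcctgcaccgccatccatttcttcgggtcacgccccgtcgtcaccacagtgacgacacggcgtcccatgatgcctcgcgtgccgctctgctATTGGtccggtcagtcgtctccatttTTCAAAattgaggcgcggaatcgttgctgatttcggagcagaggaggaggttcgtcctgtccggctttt
Birc5 (chr11:117848987-117849286, plus strand): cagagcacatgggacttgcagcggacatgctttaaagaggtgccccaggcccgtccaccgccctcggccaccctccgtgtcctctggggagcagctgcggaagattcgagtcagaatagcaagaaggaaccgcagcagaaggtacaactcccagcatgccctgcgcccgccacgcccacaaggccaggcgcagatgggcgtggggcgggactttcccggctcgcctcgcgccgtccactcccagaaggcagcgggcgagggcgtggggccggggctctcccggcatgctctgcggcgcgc
The Cdk1 and Ccnb2 windows each held 2 matches to the homology letters and 3 to CCAAT, and those of Cdc20, Plk1 and Kif11 held both kinds at least once. The Birc5 window held neither, which says only that these letters are not in it. The table held a window for 39 of the 48 members. Of these 39 genes, 30 (76.9%) had TTTGAA or TTCGAA, against 21.7% of the 27025 genes in the table. CCAAT was present in 29 of 39 (74.4%) against 41.1% of all genes, and both together in 26 of 39 (66.7%) against 8.61%. The motifs can share letters where they meet, as in 1 pair of matches in the members' windows, and the palindrome TTCGAA was counted once per position. Relative to the annotated start, the 44 homology matches of the members had their first letter at a median offset of -10 and the 74 CCAAT matches at one of -63.5. These were counted over 41 windows. Ect2 and Prc1 had 2 overlapping windows each, so their sites were counted in both. The members' windows were richer in G and C (median 58.7%) than all windows (52.7%). A match is a description of the letters and was not set against any measured value.

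**Figure D1:**
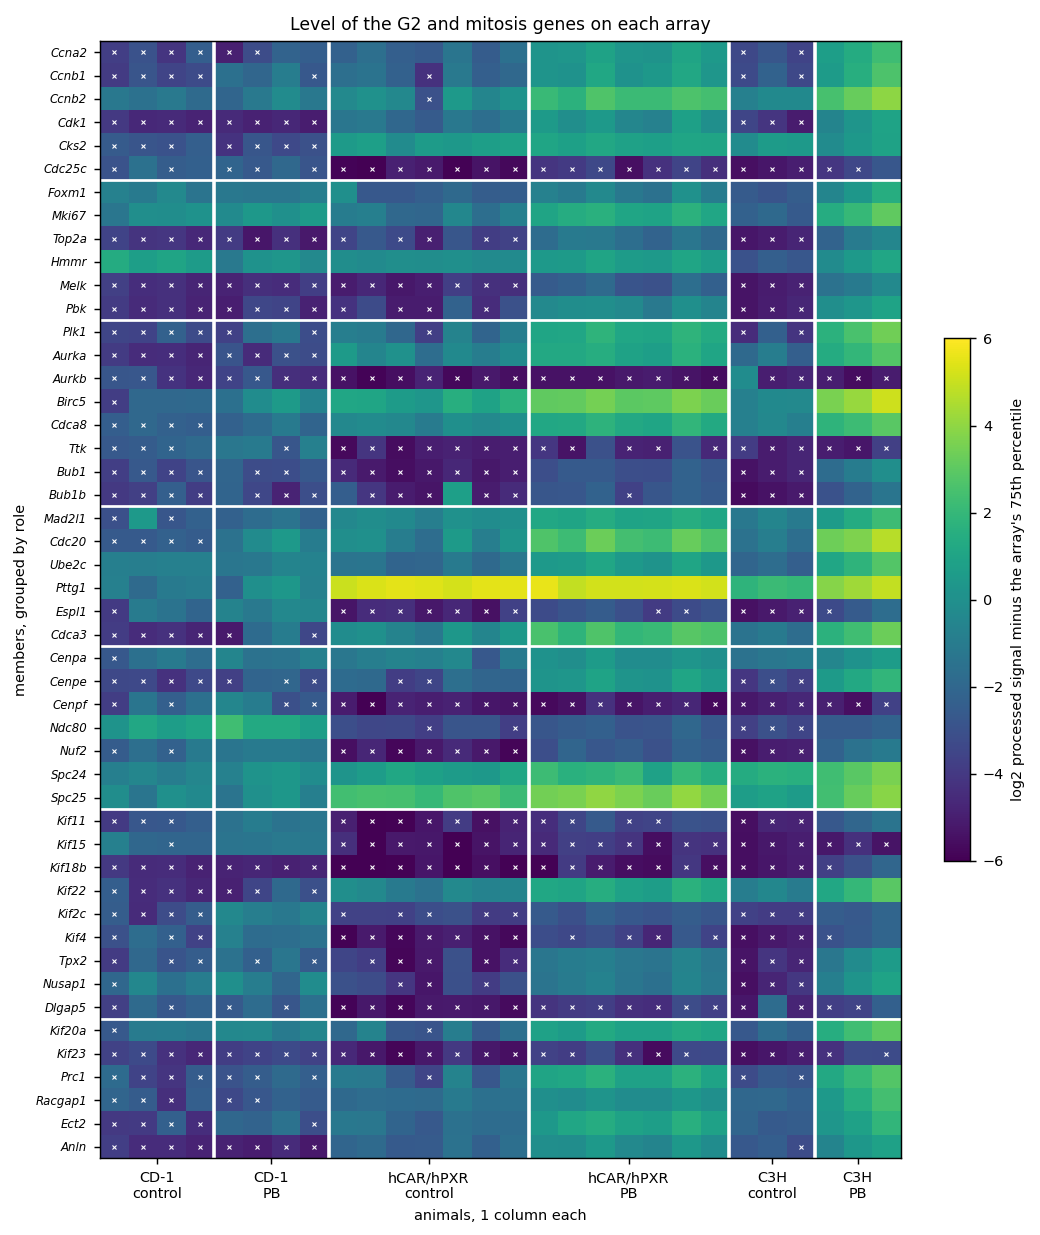
Heat map of the log2 level of the 48 members (rows, grouped by role from cyclins at the top to cytokinesis at the bottom) on each of the 28 arrays (columns), with the array's 75th percentile at 0. White crosses mark values not well above background. The hCAR/hPXR and C3H PB animals are lighter than their controls in most rows, with 37 to 43 members well above background per array against 20 to 34 in their controls.

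Detection alone separated the treated animals from the controls within each strain. In whole liver, more dividing cells and more RNA per cell cannot be told apart. Of the 48 members, 20, 22 and 26 were well above background on the C3H control arrays against 38, 42 and 43 on the C3H PB arrays. Among hCAR/hPXR mice the controls had 21 to 34 members detected (median 29) and the PB animals 37 to 42 (median 39). In CD-1 mice the controls had 10 to 24 (median 18) and the PB animals 27 to 32 (median 29.5). The share of all probes well above background did not separate the groups: it was 41.3% to 45.2% in C3H controls against 42.1% to 46.0% with PB, and 46.6% to 58.6% against 46.7% to 53.0% in hCAR/hPXR mice. In CD-1 mice it was 46.2% to 70.5% against 62.2% to 70.6%, and the control array with the lowest share was also the one with 10 members detected.

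In C3H mice after 27 weeks, nearly every measurable member rose. Of 38 members tested, 37 rose and none fell, against 7.38% of the 18273 genes tested that rose and 7.30% that fell (14.7% in all). Each PB animal was above each control for these same 37, which holds for 17.3% of all genes tested. The exception was Cks2. Of the 38, 18 entered the test only because every PB array detected them, which favours a rise. Among the 20 detected on all arrays of both groups, 19 rose, against 6.65% of all genes detected that widely, with a median change of 3.27. With no filter, 35 of all 48 rose and none fell, against 1.26% of all 37208 genes, and the median over the 48 was 3.20 against -0.20 over all genes. Leaving out 1 animal left 30 to 37 members called. Without control 1, control 3 or PB 2, the calls of Cenpa, Foxm1, Kif22, Mad2l1, Ndc80, Spc24 and Spc25 were lost; without control 2 those of Cenpa, Foxm1 and Spc24, and without PB 3 those of Cenpa, Ndc80 and Spc24. Quantile normalization lowered the median change from 3.71 to 3.05, and with the local background corrected before it (normexp with an offset of 50) the median was 1.54.

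In the hCAR/hPXR strain after 7 days, members also rose widely, with a smaller change than in C3H mice in 24 of the 25 members that were well above background on at least 1 array of every group of both strains. Of 36 members tested, 35 rose and none fell, against 35.0% and 23.2% of the 20037 genes tested (58.1% in all), a strain in which changes were common. The change was above 0 for the same 35, as for 60.7% of all genes tested. PB lay wholly above control for 30 of the 36 (12.2% of all genes tested) and wholly below it for none (8.13%). The exception was Pttg1. Here 15 members entered the test only because every PB array detected them, so the count over the 36 is no support in itself. Of the 21 detected on every array of both groups, 20 rose, against 38.0% of all genes detected that widely, with a median of 1.64. With no filter, 42 of 48 rose, against 16.4% of all genes, with a median of 1.77 over the 48 against 0.05. With the slide as a block, which rests on PB animal 1 against the 7 controls of its slide and assumes that it varies as the others do, 16 members were called higher (1.26% of all genes), 31 had an unadjusted p under 0.05 (15.2%) and the median change was 2.07 against 2.21 without the block. Those 16 were Ccna2, Mki67, Pbk, Birc5, Cdca8, Bub1, Mad2l1, Cdc20, Ube2c, Cdca3, Nuf2, Kif22, Kif20a, Racgap1, Ect2 and Anln. Leaving out any 1 animal left 35 called. The median change was 1.90 with quantile normalization and 0.91 with normexp before it.

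In CD-1 mice after 7 days, few members were measurable and few changed. Of 22 tested, 4 rose (Kif2c, Cdc20, Birc5 and Kif11) and 1 fell (Hmmr), against 1.85% and 6.14% of the 23789 genes tested (7.99% in all), and 17 did not pass. The change was above 0 for 18 of the 22, against 47.5% of all genes tested, with a median of 0.55 against -0.04. Over all genes called there, 23.2% were higher, and 33.8% and 39.4% after quantile normalization without and with normexp. The PB animals were all above the controls for these 4 members, as for 6.54% of all genes tested, and all below them for Hmmr, as for 11.9%. The 13 members that entered the test only because every PB array detected them include all 4 that rose, and the other 9 did not pass. Among the 9 detected on every array of both groups, Hmmr fell and none rose at that threshold, against 1.64% of all genes detected that widely. None of those 9 was higher at an unadjusted p under 0.05 either. With no filter, 3 of 48 rose (0.548% of all genes) and the median over the 48 was 0.48 against -0.08. Leaving out 1 animal gave 3 to 6 calls. The call of Birc5 was lost without control 3, PB 2, PB 3 or PB 4, that of Hmmr in every such fit except the one without PB 3, and Espl1 and Kif4 were called without control 2.

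**Figure D2:**
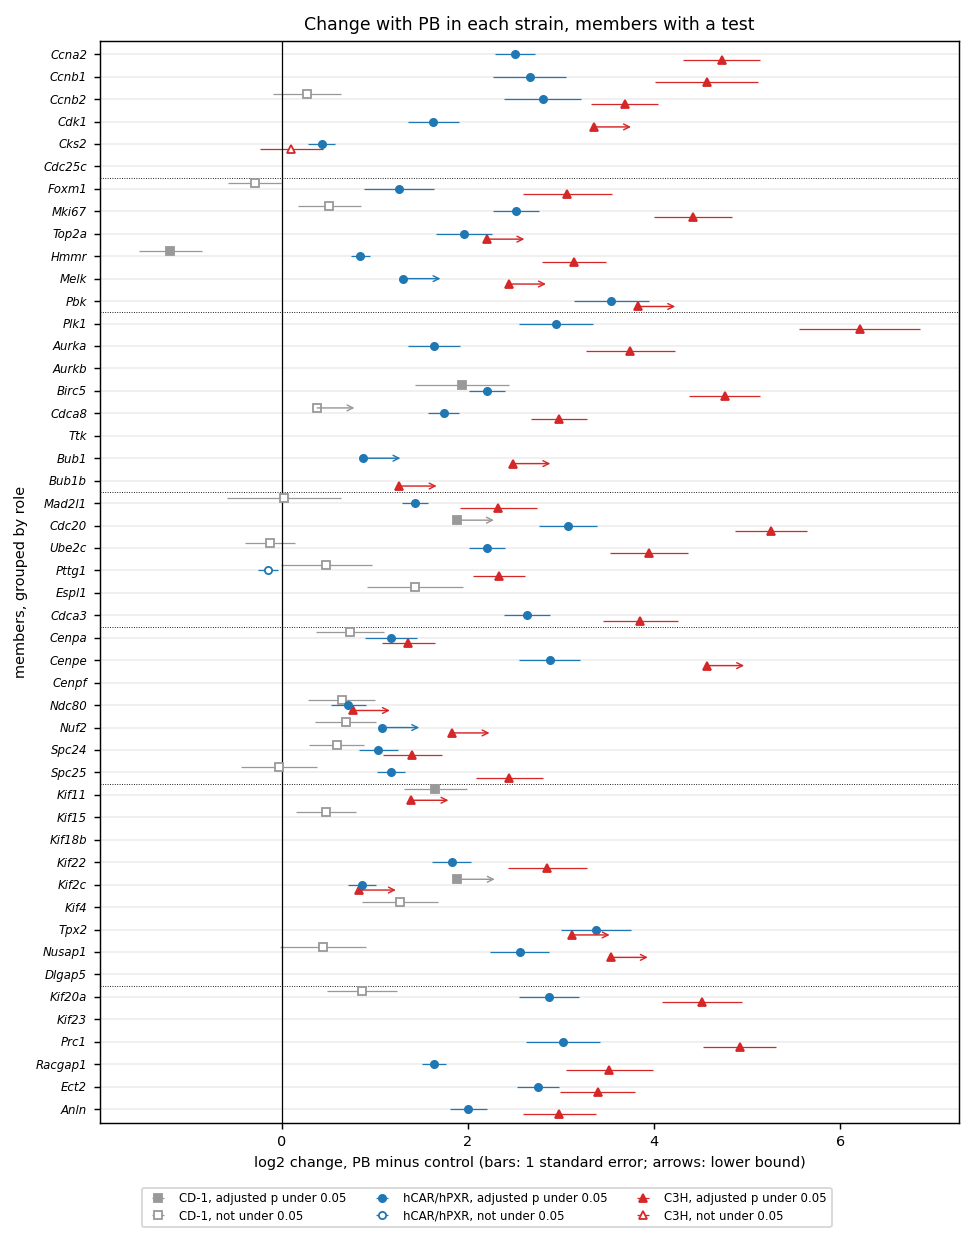
Log2 change, PB minus control, of each member tested in a strain (points) with 1 standard error (bars). An arrow marks a lower bound, drawn where no control was well above background; filled symbols mark an adjusted p under 0.05, and rows without a symbol were not tested in that strain. Of the 25 members without an arrow in hCAR/hPXR and C3H mice, 24 have the C3H triangle to the right of the hCAR/hPXR circle, and the CD-1 squares without an arrow lie between -1.20 and 1.94.

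In the accounts of single genes that follow, the lowest, median and highest levels are given for the groups of 7 animals, and every animal for the others. Of the cyclins, their kinase and its activators, 4 of 5 tested members rose in C3H mice, 5 of 5 in hCAR/hPXR mice and 0 of 1 in CD-1 mice. Ccna2, cyclin A, which binds Cdk1 and Cdk2 in late S and G2, stood at -3.41, -2.77 and -3.60 in the C3H controls, 1 of 3 of them well above background, and at 0.74, 1.38 and 2.27 with PB. It rose by 4.72 ± 0.41 (adjusted p = 0.00247), the groups being far apart. Its hCAR/hPXR levels were -2.62, -2.29 and -1.32 in controls and 0.17, 0.30 and 1.01 with PB, a rise of 2.51 ± 0.22 (adjusted p = 1.87e-06) with no overlap, and 2.25 with the slide as a block (adjusted p = 0.0180). In CD-1 mice Ccna2 was well above background on no control and 2 of 4 PB arrays and was not tested; the levels were -3.80, -2.997, -4.16 and -2.44 against -4.96, -3.22, -2.20 and -2.42.

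Ccnb1, cyclin B1, the activating subunit of Cdk1 at mitotic entry, read -3.31, -2.24 and -3.40 in C3H controls (1 of 3 well above background) and 0.58, 1.53 and 2.63 with PB, a rise of 4.56 ± 0.56 (adjusted p = 0.00678). The lowest, median and highest hCAR/hPXR levels were -4.28, -1.96 and -1.14 in controls and 0.11, 0.29 and 1.21 with PB, a rise of 2.66 ± 0.39 (adjusted p = 8.37e-05), and the groups did not overlap. With the slide as a block the value was 2.36 and no longer passed (adjusted p = 0.171). The CD-1 controls read -3.90, -2.85, -3.56 and -3.25, none well above background, and the PB animals -1.55, -2.05, -0.92 and -2.68, 3 of 4 of them well above it. These CD-1 groups did not overlap, but the probe missed the filter and was not tested. Another Ccnb1 probe, detected on 3 of 4 CD-1 controls and all 4 PB arrays, gave 0.94 ± 0.51 in the fit of all probes and did not pass (adjusted p = 0.255).

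Cdk1, the kinase at the centre of mitotic entry whose promoter is printed above, was not well above background on any C3H control (-3.49, -4.13 and -5.08) and was on every C3H PB array (-0.59, 0.24 and 0.97). It was at least 10.2-fold higher with PB (adjusted p = 0.00578). In hCAR/hPXR mice it read -2.57, -1.28 and -1.07 in controls and -0.73, -0.02 and 0.80 with PB and rose by 1.63 ± 0.27 (adjusted p = 0.000214), with 2.11 under the slide block (adjusted p = 0.0671). The nearest animals of those 2 groups lay close together but did not cross. No CD-1 array had this probe well above background, at -4.02, -4.60, -4.57 and -4.82 in controls and -4.57, -4.86, -4.68 and -5.05 with PB. Another Cdk1 probe was detected on all 8 CD-1 arrays and gave 0.13 ± 0.36 in a fit of all probes (adjusted p = 0.839). A further Cdk1 probe was detected on no CD-1 array. Each of these probes was detected on 1 control and 1 PB array of the hCAR/hPXR mice and on no C3H array. They were not tested in hCAR/hPXR mice, where their mean changes were -0.55 and -0.44, against the rise on the main probe. With the mean of all probes of a gene, Cdk1 gave 0.21 in hCAR/hPXR mice and did not pass (adjusted p = 0.524). The probes of this gene thus disagree in that strain. Ccnb2, cyclin B2, rose by 3.68 ± 0.36 in C3H and 2.80 ± 0.41 in hCAR/hPXR mice, and gave 0.27 ± 0.37 in CD-1 mice (adjusted p = 0.652).

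Cks2, a small subunit that docks onto Cdk1, was the one tested member that did not rise in C3H mice. The C3H levels were -0.21, 0.56 and 0.46 in controls and -0.23, 0.42 and 0.93 with PB, a change of 0.10 ± 0.34 (adjusted p = 0.856), and the groups overlapped throughout. For hCAR/hPXR mice Cks2 rose by 0.43 ± 0.14 (adjusted p = 0.0193), the smallest rise of any member there, with overlapping groups (-0.21, 0.60 and 0.88 against 0.76, 0.99 and 1.19). It was well above background in all controls of both strains, so its small change was measured over a detected starting level. Cdc25c, the phosphatase that activates Cdk1, was not tested in any strain.

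Foxm1, the transcription factor that drives many of these genes, heads the next role, of which all 6 members rose in both C3H and hCAR/hPXR mice. The C3H controls read -2.56, -2.90 and -2.44 and the PB animals -0.52, 0.33 and 1.497, all well above background, a rise of 3.07 ± 0.48 (adjusted p = 0.0144). Among hCAR/hPXR mice the levels were -2.70, -2.44 and -0.02 and -1.52, -0.97 and 0.09, and the change of 1.26 ± 0.38 (adjusted p = 0.0102) came with overlapping groups, control 1 standing above 6 of the 7 PB animals. Without control 1 the change was 1.60 (adjusted p = 0.000115). In CD-1 mice Foxm1 gave -0.72, -1.10, -0.34 and -1.38 in controls and -1.19, -1.29, -1.30 and -0.94 with PB (-0.29 ± 0.29, adjusted p = 0.529), with full overlap. A second, dimmer Foxm1 probe fell by 2.71 ± 0.42 in CD-1 mice in a fit of all probes (adjusted p = 0.00209), from 4 of 4 controls well above background to 1 of 4 PB animals. The 2 probes do not give the same account of Foxm1 in that strain.

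Mki67, which encodes the Ki-67 antigen used as the standard stain for cycling cells, was detected on all 28 arrays. It stood at -2.27, -1.89 and -2.59 in C3H controls and 1.41, 2.03 and 3.06 with PB, a 21.4-fold rise (4.42 ± 0.42, adjusted p = 0.00316). The hCAR/hPXR levels were -2.04, -0.95 and -0.44 in controls and 0.97, 1.09 and 1.72 with PB, a 5.70-fold rise (2.51 ± 0.25, adjusted p = 4.72e-06), which was 2.24 with the slide as a block (adjusted p = 0.0358). Neither pair of groups overlapped. CD-1 mice read -1.28, -0.07, -0.10 and 0.11 in controls and -0.25, 0.40, 0.01 and 0.54 with PB, a change of 0.51 ± 0.34 that did not pass (adjusted p = 0.346). Control 1 lay far below the other CD-1 controls, and without it the change was 0.20 (adjusted p = 0.730). A second Mki67 probe gave 4.65 in C3H and 2.36 in hCAR/hPXR mice.

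Top2a, the topoisomerase that untangles sister chromatids, was not well above background on any C3H control (-5.30, -5.06 and -4.75) and was in all PB animals (-2.17, -0.99 and -0.50), at least 4.61-fold higher (adjusted p = 0.00489). In the hCAR/hPXR strain it read -4.95, -3.56 and -2.67 in controls, 2 of 7 of them well above background, and -2.18, -1.67 and -1.06 with PB. It rose there by 1.96 ± 0.30 (adjusted p = 0.000113) and gave 1.76 with the slide block (adjusted p = 0.184). All 8 CD-1 arrays were at background for Top2a, with -3.60, -4.17, -4.12 and -4.61 in controls and -3.89, -5.25, -4.35 and -5.17 with PB.

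Hmmr, a spindle-associated receptor for hyaluronan, changed in opposite directions between strains. In CD-1 mice it went from 1.37, 0.74, 1.003 and 0.59 in controls to -1.13, 0.10, 0.29 and -0.34 with PB, a change of -1.20 ± 0.34 (adjusted p = 0.0481), with every PB animal below every control. The call was lost with quantile normalization (adjusted p = 0.0559) and on leaving out any CD-1 animal but PB 3. It rose by 0.84 ± 0.10 in hCAR/hPXR mice (adjusted p = 2.15e-05) and by 3.14 ± 0.34 in C3H mice (adjusted p = 0.00477), and the difference from CD-1 passed its own test for both, at 2.04 ± 0.32 (adjusted p = 5.16e-05) and 4.34 ± 0.39 (adjusted p = 1.52e-08). Pbk, a mitotic kinase, had the largest change among members detected on at least 1 array of both groups in hCAR/hPXR mice, -5.11, -4.24 and -2.21 in controls (3 of 7 well above background) against -1.13, -0.35 and -0.01 with PB, or 3.54 ± 0.40 (adjusted p = 1.39e-05). In C3H mice, with no control well above background, Pbk was at least 14.2-fold higher (adjusted p = 0.000626). Melk, a kinase of proliferating cells, was not well above background on any control of these strains and was at least 2.47-fold higher in hCAR/hPXR and at least 5.42-fold higher in C3H mice.

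**Figure D3:**
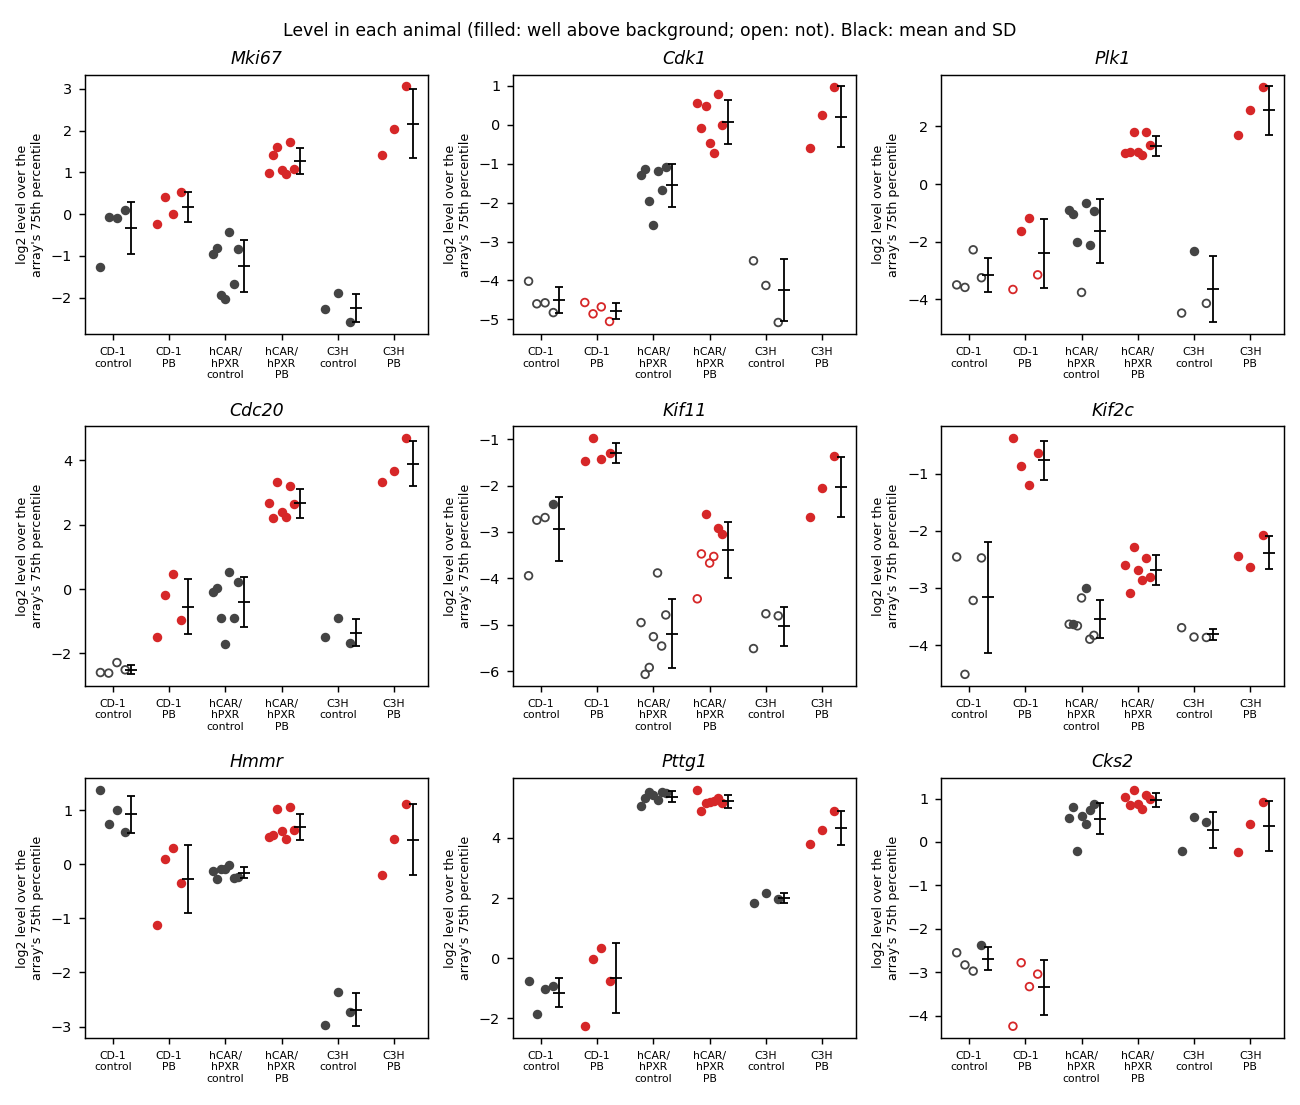
Log2 level of 9 members in each animal, with the array's 75th percentile at 0 (points; filled where well above background, open where not; dark for control, red for PB) beside the group mean and SD (bars, n = 4, 7 and 3 per group in CD-1, hCAR/hPXR and C3H). Mki67, Plk1 and Cdc20 separate control from PB in hCAR/hPXR and C3H mice, Hmmr falls in CD-1 and rises in the others, and Pttg1 and Cks2 overlap in hCAR/hPXR mice.

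Among the mitotic kinases and their partners, 6 of 6 tested members rose in C3H mice, 5 of 5 in hCAR/hPXR mice and 1 of 2 in CD-1 mice. Plk1, the Polo kinase, had the largest change among members detected on at least 1 array of both groups in C3H mice. Its C3H controls read -4.48, -2.33 and -4.14, 1 of 3 well above background, and its PB animals 1.71, 2.57 and 3.39, a rise of 6.21 ± 0.65 (adjusted p = 0.00420). In hCAR/hPXR mice the levels were -3.76, -1.03 and -0.66 and 1.01, 1.10 and 1.80, a rise of 2.95 ± 0.40 (adjusted p = 4.55e-05) without overlap, and 2.70 with the slide block (adjusted p = 0.122). The CD-1 levels were -3.50, -3.59, -2.28 and -3.25 in controls, none well above background, and -3.66, -1.62, -1.18 and -3.15 with PB, 2 of 4 well above it, and were not tested.

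Aurka, the Aurora kinase of the spindle poles, read -1.88, -0.89 and -2.36 in C3H controls and 1.37, 1.93 and 2.78 with PB, a rise of 3.74 ± 0.48 (adjusted p = 0.00749). Its hCAR/hPXR levels were -1.73, -0.31 and 0.55 in controls and 0.70, 1.22 and 1.68 with PB, a rise of 1.64 ± 0.28 (adjusted p = 0.000224), or 1.68 with the slide block (adjusted p = 0.171). Neither pair overlapped. In CD-1 mice no array had Aurka well above background, at -3.93, -4.48, -4.42 and -4.76 in controls and -2.90, -4.53, -3.002 and -3.20 with PB. Aurkb, the Aurora kinase of the chromosomal passenger complex, gave no usable signal: it was well above background on 1 of 28 arrays, a C3H control, and its levels there were -0.14, -5.01 and -4.77 against -4.99, -5.59 and -5.10 with PB. Its CD-1 levels were -2.79, -2.74, -4.25 and -4.66 and -3.58, -2.69, -4.40 and -4.47, and its hCAR/hPXR levels -5.86, -5.49 and -4.78 and -5.62, -5.41 and -5.09, so it was tested in no strain.

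Birc5, survivin, a partner of Aurkb in that complex, rose in all 3 strains. The C3H levels were -0.79, -0.28 and -0.34 in controls and 3.61, 4.14 and 5.11 with PB, a 27.1-fold rise (4.76 ± 0.38, adjusted p = 0.00185). For hCAR/hPXR mice they were 0.31, 1.07 and 1.68 and 2.97, 3.096 and 3.64, a rise of 2.21 ± 0.19 (adjusted p = 1.85e-06) and of 2.06 with the slide block (adjusted p = 0.0151). In CD-1 mice they were -3.83, -1.92, -1.93 and -1.91 (3 of 4 well above background) and -1.56, -0.14, 0.56 and -0.69, a rise of 1.94 ± 0.50 (adjusted p = 0.0336). The nearest CD-1 animals were close together, and the other 2 Birc5 probes gave -0.01, untested, and 0.78 (adjusted p = 0.163) there. Both of those probes rose in the other strains. Bub1b, the checkpoint kinase BubR1, was tested only in C3H mice, where no control was well above background (-5.67, -5.41 and -5.15 against -2.97, -2.16 and -1.35), and was at least 2.40-fold higher (adjusted p = 0.00678). Its hCAR/hPXR levels were -5.31, -4.51 and 0.77 in controls, where control 5 stood above every other animal of the strain, and -3.68, -2.75 and -2.21 with PB. The CD-1 levels of Bub1b were -4.02, -3.75, -2.39 and -3.82 and -2.12, -3.43, -4.81 and -3.13. Cdca8, Borealin of the passenger complex, rose by 1.74 ± 0.16 in hCAR/hPXR and by 2.98 ± 0.30 in C3H mice. Bub1, a kinetochore kinase, was at background in all controls of both and at least 1.83-fold and 5.60-fold higher with PB. Ttk, the checkpoint kinase Mps1, was tested in no strain.

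In the checkpoint and anaphase role, 5 of 5 tested members rose in C3H mice, 4 of 5 in hCAR/hPXR mice and 1 of 5 in CD-1 mice. Mad2l1, the checkpoint protein Mad2, read -1.18, -0.56 and -1.07 in C3H controls and 0.60, 1.37 and 2.21 with PB, a rise of 2.33 ± 0.41 (adjusted p = 0.0193). The hCAR/hPXR levels were -0.89, -0.18 and 0.09 and 0.97, 1.11 and 1.47, a rise of 1.43 ± 0.14 (adjusted p = 4.34e-06), or 1.47 with the slide block (adjusted p = 0.0159). The CD-1 controls spread more widely than the PB animals, at -3.08, 0.42, -2.79 and -2.28 against -2.29, -1.76, -1.36 and -2.22 with PB (0.02 ± 0.61, adjusted p = 0.986), and the sign turned under other normalizations.

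Cdc20, the activator of the anaphase-promoting complex, rose in all 3 strains. The C3H controls read -1.48, -0.89 and -1.68 and the PB animals 3.34, 3.67 and 4.69, a 38.1-fold rise (5.25 ± 0.38, adjusted p = 0.00152). Among hCAR/hPXR mice the levels were -1.71, -0.09 and 0.53 and 2.21, 2.64 and 3.32, an 8.42-fold rise (3.07 ± 0.31, adjusted p = 6.32e-06), with 3.08 under the slide block (adjusted p = 0.0254). No CD-1 control was well above background (-2.59, -2.61, -2.28 and -2.51) and every PB animal was (-1.49, -0.20, 0.46 and -0.95), so Cdc20 was at least 3.68-fold higher (adjusted p = 0.00732). No pair of groups overlapped in any of the 3 strains. With normexp the CD-1 value was 0.66 and did not pass (adjusted p = 0.116).

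Ube2c, the enzyme that passes ubiquitin to that complex's substrates, was detected on all 28 arrays. It rose from -2.09, -1.72 and -2.34 to 1.11, 1.79 and 2.78 in C3H mice (3.94 ± 0.42, adjusted p = 0.00428). In the hCAR/hPXR strain it rose from -2.15, -1.38 and -1.07 to 0.15, 0.52 and 1.09 (2.21 ± 0.19, adjusted p = 2.07e-06; 2.10 with the slide block, adjusted p = 0.0149). The CD-1 controls were close together at -0.81, -0.87, -0.78 and -0.79, and the PB animals at -1.27, -1.21, -0.58 and -0.69 lay on both sides of them (-0.13 ± 0.26, adjusted p = 0.781). The PB effect on Ube2c was larger than in CD-1 by 2.33 ± 0.35 in hCAR/hPXR mice (adjusted p = 3.79e-05) and by 4.07 ± 0.43 in C3H mice (adjusted p = 2.48e-07).

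Espl1, separase, the protease that cuts cohesin, was tested only in CD-1 mice. Its CD-1 controls read -3.94, -0.98, -1.41 and -2.14, 3 of 4 well above background, and its PB animals -0.65, -1.16, -0.42 and -0.51, a change of 1.43 ± 0.52 that did not pass (adjusted p = 0.100). In hCAR/hPXR mice the levels were -5.45, -4.65 and -3.70 in controls, none well above background, and -3.93, -3.06 and -2.49 with PB, 5 of 7 well above it. In C3H mice they were -5.48, -5.17 and -4.90 and -3.30, -2.57 and -1.73, with 0 of 3 and 2 of 3 well above background. The PB animals were the higher ones in C3H mice, without overlap. Cdca3, a trigger of mitotic entry that is itself degraded after mitosis, rose by 2.63 ± 0.24 in hCAR/hPXR mice and by 3.85 ± 0.40 in C3H mice and was not tested in CD-1 mice.

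Pttg1, securin, the inhibitor of separase, was the one tested member that did not rise in hCAR/hPXR mice. It read 5.06, 5.43 and 5.52 in controls and 4.88, 5.19 and 5.59 with PB, a change of -0.15 ± 0.11 (adjusted p = 0.233), and the groups overlapped. Its control level in that strain was 5.37 ± 0.17 (SD, n = 7), against 1.99 ± 0.17 (n = 3) in C3H and -1.15 ± 0.49 (n = 4) in CD-1 mice on the same probe, in experiments that were scaled array by array and not tested against each other. In C3H mice Pttg1 rose from 1.83, 2.17 and 1.98 to 3.81, 4.27 and 4.90 (2.33 ± 0.28, adjusted p = 0.00650), so that its C3H PB animals still read lower than every hCAR/hPXR control. A second Pttg1 probe rose by 0.57 ± 0.09 in hCAR/hPXR mice (adjusted p = 0.000205), so the probes of this gene disagree there. Quantile normalization gave -0.36 on the first probe and called it lower (adjusted p = 0.0115).

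Kinetochore and centromere members had the smallest median changes of the 7 roles in C3H and hCAR/hPXR mice. In C3H mice 6 of 6 tested members rose with a median of 1.92, in hCAR/hPXR mice 6 of 6 with a median of 1.17, and in CD-1 mice 0 of 5 passed. Cenpa, the histone variant that marks centromeres, read -1.47, -1.25 and -1.09 in C3H controls and -0.48, 0.12 and 0.63 with PB, a rise of 1.36 ± 0.29 (adjusted p = 0.0307). The hCAR/hPXR levels were -2.70, -0.85 and -0.38 and -0.18, -0.05 and 0.57, a rise of 1.17 ± 0.28 (adjusted p = 0.00253), and 1.24 with the slide block (adjusted p = 0.335). In CD-1 mice Cenpa read -2.71, -1.58, -1.09 and -1.70 and -0.53, -1.45, -1.40 and -0.78 with overlap (0.73 ± 0.36, adjusted p = 0.215).

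Ndc80, the microtubule-binding subunit of the kinetochore, had one of the 3 smallest changes in both of these strains. It was not well above background on any C3H control (-3.73, -3.04 and -3.49) and was at least 1.70-fold higher with PB (-2.55, -2.55 and -2.24, adjusted p = 0.0315). For hCAR/hPXR mice it read -3.78, -3.38 and -2.84 and -2.95, -2.76 and -1.999, a rise of 0.72 ± 0.18 (adjusted p = 0.00397) with overlapping groups, and 0.51 with the slide block (adjusted p = 0.561). In CD-1 mice the levels were 0.18, 1.20, 0.66 and 1.01 and 2.33, 1.29, 1.27 and 0.73 (0.64 ± 0.36, adjusted p = 0.266), with overlap. Of the other subunits of its complex, Spc24 and Spc25 rose by 1.04 ± 0.21 and 1.18 ± 0.15 in hCAR/hPXR and by 1.40 ± 0.31 and 2.44 ± 0.36 in C3H mice. Nuf2, at background in all controls of both, was at least 2.11-fold and 3.56-fold higher. Cenpe, the kinesin of the kinetochore, rose by 2.88 ± 0.33 in hCAR/hPXR mice and, from controls all at background, at least 23.7-fold in C3H mice, and Cenpf was tested in no strain.

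Of the 9 spindle proteins and motors, 5 were tested in C3H, 4 in hCAR/hPXR and 5 in CD-1 mice, and 5, 4 and 2 of these rose. Kif11, the motor that pushes spindle poles apart, rose in CD-1 mice from -3.94, -2.75, -2.69 and -2.39, 1 of 4 well above background, to -1.47, -0.98, -1.42 and -1.31 (1.65 ± 0.34, adjusted p = 0.0110). In C3H mice it was at background in all controls (-5.51, -4.76 and -4.81) and at least 2.62-fold higher with PB (-2.68, -2.05 and -1.37, adjusted p = 0.00678). The hCAR/hPXR levels were -6.07, -5.26 and -3.88 in controls, none well above background, and -4.44, -3.47 and -2.62 with PB, 3 of 7 well above it, and were not tested. Tpx2, the protein that activates Aurka on the spindle, was at least 8.70-fold higher in C3H mice, from -5.34, -4.13 and -4.77 to -1.25, -0.22 and 0.57 (adjusted p = 0.00544). Among hCAR/hPXR mice it read -5.84, -4.46 and -3.03 in controls, 2 of 7 well above background, and -1.41, -1.24 and -0.65 with PB, a rise of 3.37 ± 0.38 (adjusted p = 1.23e-05), or 3.18 with the slide block (adjusted p = 0.0530). Its CD-1 levels were -3.90, -1.93, -2.90 and -2.46 and -1.46, -2.32, -1.29 and -2.55, with 1 of 4 and 2 of 4 well above background. Another Tpx2 probe disagreed: it was detected on all 8 CD-1 arrays and gave 0.30 ± 0.30 there (adjusted p = 0.541), and in hCAR/hPXR mice it was detected on 4 controls and 1 PB array, was not tested, and had a mean 1.25 lower with PB.

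Kif2c, a kinesin that takes microtubules apart, was 1 of the 4 members that rose in CD-1 mice. It went from -2.46, -4.51, -3.22 and -2.48, none well above background, to -0.38, -0.86, -1.19 and -0.65, at least 3.70-fold higher (adjusted p = 0.00405). It rose by 0.86 ± 0.15 in hCAR/hPXR mice (adjusted p = 0.000305) and was at least 1.77-fold higher in C3H mice (adjusted p = 0.00678). Its fitted effect in hCAR/hPXR mice was smaller than in CD-1 mice (adjusted p = 0.00258), the only one of 18 members called in that direction. With the CD-1 change at its bound the gap was 1.03 on the log2 scale. Only 2 of 7 hCAR/hPXR controls were well above background. The hCAR/hPXR change may thus be larger than fitted, and 1.03 is not a lower limit of the gap. A second Kif2c probe missed the filter in CD-1 and hCAR/hPXR mice and put these strains in the other order. Its mean change was 0.69 in CD-1 mice and 1.62 in hCAR/hPXR mice, where 0 controls and 6 PB arrays were well above background. The probes of this gene thus disagree on that difference, which was not tested on the second probe. It rose by 2.65 ± 0.31 in C3H mice. Nusap1, a spindle assembly protein, rose by 2.55 ± 0.32 in hCAR/hPXR mice and was at least 11.6-fold higher in C3H mice, and Kif22, a chromosome-arm motor, rose by 1.82 ± 0.21 and 2.85 ± 0.43. Kif4 and Kif15 were tested only in CD-1 mice and did not pass there, and Kif18b and Dlgap5 were tested nowhere.

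Of the cytokinesis members, 5 of 6 were tested and rose in both C3H and hCAR/hPXR mice, and 0 of 1 passed in CD-1 mice. Kif20a, the motor that brings the passenger complex to the midzone, read -2.70, -1.73 and -2.31 in C3H controls and 1.47, 2.30 and 3.04 with PB, a 22.9-fold rise (4.52 ± 0.43, adjusted p = 0.00315). The hCAR/hPXR levels were -2.86, -1.94 and -0.65 and 0.57, 0.88 and 1.35, a rise of 2.87 ± 0.32 (adjusted p = 1.25e-05), and 2.78 with the slide block (adjusted p = 0.0475). In CD-1 mice the levels were -2.63, -1.03, -0.95 and -1.18 and -0.39, -0.37, -1.06 and -0.54 (0.86 ± 0.38, adjusted p = 0.162), with overlap.

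Prc1, the bundler of midzone microtubules, read -3.24, -2.59 and -2.85 in C3H controls (1 of 3 well above background) and 1.25, 2.04 and 2.79 with PB, a rise of 4.92 ± 0.39 (adjusted p = 0.00185). In the hCAR/hPXR strain it rose from -3.55, -1.31 and -0.62 to 0.86, 1.0 and 1.69 (3.02 ± 0.39, adjusted p = 3.66e-05; 2.85 with the slide block, adjusted p = 0.0983). Both pairs of groups were apart. The CD-1 levels, -1.82, -3.56, -4.16 and -2.51 against -2.91, -2.44, -1.83 and -2.38, were untested, with 0 of 4 and 1 of 4 well above background. Racgap1 and Ect2, which set the cleavage site, rose by 1.63 ± 0.13 and 2.75 ± 0.23 in hCAR/hPXR and by 3.52 ± 0.46 and 3.39 ± 0.40 in C3H mice. Anln, which anchors the contractile ring, rose by 2.004 ± 0.20 and 2.98 ± 0.39, and the motor Kif23 was tested in no strain.

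Across strains, 34 members rose in both hCAR/hPXR and C3H mice, 3 of them (Birc5, Cdc20 and Kif2c) in CD-1 mice as well, and 7 were tested nowhere: Cdc25c, Aurkb, Ttk, Cenpf, Kif18b, Dlgap5 and Kif23. The remaining members were Espl1, Kif4 and Kif15, tested only in CD-1 mice, Bub1b, tested only in C3H mice, Kif11, which rose in CD-1 and C3H mice, and Pttg1 and Cks2, described above. Of the 36 members tested in both, 25 were well above background on at least 1 array of all 4 groups, and the C3H change was the larger in 24 of these. Over those 25 the changes in hCAR/hPXR and C3H mice ranked much alike (Pearson's r = 0.81, Spearman's rho = 0.84), as a description over genes that share the same arrays. For the other 11 no C3H control was well above background. With the C3H change at its bound, it was still larger than the fitted hCAR/hPXR change for 6 of them (Cdk1, Top2a, Pbk, Cenpe, Ndc80 and Nusap1). It was not for Kif2c or Tpx2, and Melk, Bub1 and Nuf2 had only bounds in both strains. Top2a, Pbk, Cenpe, Ndc80 and Nusap1 were well above background on only 2, 3, 5, 5 and 4 of 7 hCAR/hPXR controls. Their hCAR/hPXR changes may be larger than fitted, so the order is not settled for them. The fitted difference passed for 17 of the 36, all smaller in hCAR/hPXR mice, where 3.67% of all genes tested in both were smaller and 5.74% larger. Of these 17, 11 were among the 25. Plk1 had the largest difference of the 25 (-3.26 ± 0.80, adjusted p = 0.0101, with 1 of 3 C3H controls well above background), followed by Birc5 (-2.55 ± 0.56, adjusted p = 0.00430). For Cdk1 the hCAR/hPXR change was smaller by at least 1.72 (adjusted p = 0.000688 for the fitted difference). The count of 17 rests on few animals: it was 7 without C3H PB 3, 9 without C3H control 3 and 23 without C3H PB 1, and 3 with quantile normalization, which turned the share of larger effects among all genes called from 61.0% to 40.4%. With normexp before quantile normalization the count was 11.

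Against CD-1 mice, the PB effect was larger in hCAR/hPXR mice for 10 of 18 members tested in both and smaller for 1 (29.9% and 10.3% of all genes tested in both). It was larger in C3H mice for 14 of 19 and smaller for none (13.6% and 5.09%). Among members well above background on at least 1 array of all 4 groups, it was larger for 8 of 14 and 10 of 12 and smaller for none. For Mki67 the differences were 2.001 ± 0.44 (adjusted p = 0.00116) and 3.91 ± 0.54 (adjusted p = 1.33e-05), and for Foxm1 1.55 ± 0.55 (adjusted p = 0.0278) and 3.36 ± 0.67 (adjusted p = 0.00107). The first Mki67 difference did not pass with quantile normalization (1.25, adjusted p = 0.0617) or with normexp before it (0.45, adjusted p = 0.312). Nor did those of Kif20a and Nusap1 in either setting, or the first of Foxm1 with no filter (adjusted p = 0.0549). The difference between hCAR/hPXR and CD-1 mice did not pass for Birc5 (0.27 ± 0.50, adjusted p = 0.690) or, with CD-1 controls all at background, Cdc20 (1.12 ± 0.51, adjusted p = 0.0814). Quantile normalization lowered the count for hCAR/hPXR against CD-1 mice from 11 to 7. It moved the median difference of all genes in that comparison from 0.33 to 0.19, and that of the members from 1.37 to 1.04. In C3H against CD-1 mice quantile normalization moved the count from 14 to 10, of which 1 was smaller. Birc5, Mad2l1 and Cdc20 no longer passed there. With normexp before it the count was 15, again with 1 smaller.

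**Figure D4:**
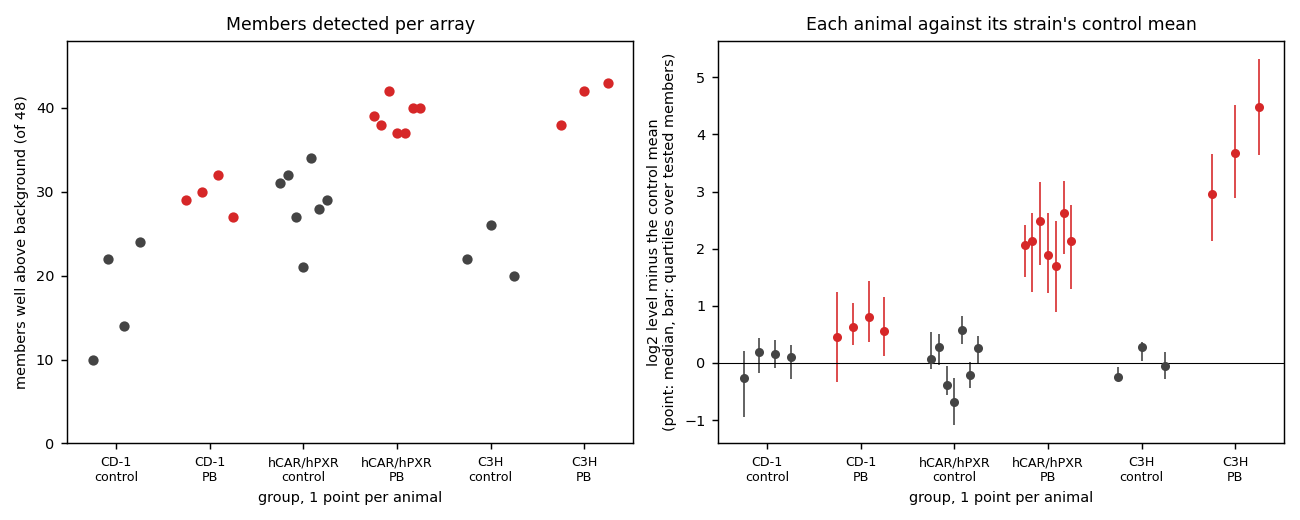
Left, number of the 48 members well above background on each animal's array. Right, each animal's median over the tested members (22, 36 and 38 in CD-1, hCAR/hPXR and C3H) of the level minus the strain's control mean, with quartiles as bars. The C3H PB medians are 2.95, 3.67 and 4.49 and the hCAR/hPXR ones 1.69 to 2.63, all above their controls.

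Members moved together from animal to animal. The counts that follow were made over the tested members only, and whether other genes shifted likewise on the same arrays was not tested. Among C3H PB animals, animal 3 was the highest for all 38 tested members and animal 1 the lowest for 36. Their median levels over the control mean were 4.49 and 2.95, with 3.67 for animal 2. In hCAR/hPXR mice PB animal 6 was the highest for 24 of 36 members (median 2.63) and PB animal 5 the lowest for 22 (median 1.69). The hCAR/hPXR controls also differed as a block, control 5 being highest for 21 members and control 4 lowest for 20. PB animal 1, the one on the controls' slide, had a median of 2.07, inside the range of the other 6. The CD-1 PB animals had medians of 0.45 to 0.80, against -0.27 to 0.19 in the controls.

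Markers of cell types moved with some of these groups, and their part in the results was not tested. In C3H mice 4 of 5 hepatocyte markers fell, and the summed level of the 5, in units of the array's 75th percentile, was 6130 to 6700 in controls against 3695 to 4465 with PB. The C3H PB animals with the higher members had the lower sums, at 4465, 3778 and 3695 for animals 1, 2 and 3. In CD-1 mice 2 of 5 fell (1266 to 2227 against 610 to 1098), and in hCAR/hPXR mice the sums overlapped (2632 to 3333 against 2622 to 3702). For hCAR/hPXR mice no marker call named below passed with the slide as a block (adjusted p of 0.0825 to 0.999). Of 5 bile duct markers in C3H mice, Krt19 rose by 2.90, and Sox9 was at least 4.43-fold lower with PB; Krt7, Epcam and Sox9 were at background in all PB animals. Krt19 and Sox9 rose by 0.91 and 0.48 in hCAR/hPXR mice. The summed T and NK cell markers were lower with PB in hCAR/hPXR mice (12.0 to 16.1 against 8.69 to 10.8), where Cd3e and Nkg7 fell and Cd3d rose by 0.51, and in C3H mice (12.3 to 14.2 against 9.41 to 10.3), where none of 6 was called. Of 6 Kupffer cell and macrophage markers Clec4f, Vsig4 and Cd5l rose in hCAR/hPXR mice (sums of 106.7 to 146 against 111 to 215) and gave -0.0015, -0.11 and -0.22 with the block. In C3H mice those sums were 86.7 to 112 against 72.1 to 86.5 with no gene called. Endothelial sums were 133 to 147 against 80.6 to 115 in C3H mice, although Lyve1 rose by 1.34 while Kdr fell by 0.65. Among hCAR/hPXR mice the endothelial sums overlapped, with Kdr falling and Lyve1 rising without overlap (-1.19 and 0.89). Stellate and fibroblast sums were 84.8 to 104 against 32.3 to 83.0 in C3H mice, while Col1a1 and Col3a1 gave 2.16 and 1.26 (adjusted p = 0.0809 and 0.107), and overlapped in the other strains. Neutrophil sums were 2.55 to 4.07 against 33.2 to 47.6 in CD-1 mice, where S100a8 rose by 6.67 and S100a9, Retnlg and Cxcr2 did not pass (0.62, 0.62 and -0.0093), and overlapped elsewhere. Of the B cell genes, Cd79a fell by 1.66 in CD-1 mice and Cd79b gave 0.89 there (not called), rose by 0.54 in hCAR/hPXR mice and gave 1.25 in C3H mice (not called). Ms4a1 was at background on all CD-1 and C3H arrays.

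Other mitosis genes, a list of 78 further genes on the array, were described in the same way for comparison. Of all genes tested, 7.38% rose and 7.30% fell in C3H mice, 35.0% and 23.2% in hCAR/hPXR mice, and 1.85% and 6.14% in CD-1 mice. In C3H mice 40 of 60 tested rose and none fell, with a median of 2.18. The smallest adjusted p belonged to Iqgap3, Cdc25b, Wee1 and Sgo1. Sgo1, the protector of centromeric cohesion, was at least 14.3-fold higher and Wee1, the inhibitory kinase of Cdk1, rose by 3.77 ± 0.29. In the hCAR/hPXR strain 51 of 62 rose and 3 fell, with a median of 1.11. The smallest adjusted p there belonged to Depdc1b, Incenp, Cdkn3 and Kifc1, and Incenp, the scaffold of the passenger complex, rose by 1.55 ± 0.11. The 3 that fell, named after their values were seen, were Ccnf (-0.66 ± 0.15), Mybl2 (-0.32 ± 0.08) and Sass6 (-0.37 ± 0.14). In CD-1 mice 3 of 43 rose (Pkmyt1, Cenpm and Cenpi) and 1 fell, E2f8, a repressor of cell cycle genes, by 1.43 on the log2 scale (SE 0.33, adjusted p = 0.0181).

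The 24 DNA replication genes, which act in the phase before, had smaller median changes than the members in the same libraries, a difference that was not tested. Their counts stand against 7.38%, 35.0% and 1.85% of all genes tested that rose in C3H, hCAR/hPXR and CD-1 mice, and 7.30%, 23.2% and 6.14% that fell. In C3H mice 12 of 22 tested rose and none fell (median 0.95), led by Rrm2, a subunit of ribonucleotide reductase, at 3.95 ± 0.41 (adjusted p = 0.00411), and Mcm6, of the replicative helicase, at 2.42 ± 0.40. In hCAR/hPXR mice 18 of 22 rose (median 0.65), with the smallest adjusted p for Gins2, Mcm4, Mcm6 and Mcm2. Gins2, of the complex that activates the helicase, rose by 1.60 ± 0.12. Mcm10 and Cdc45, named after their values were seen, fell by 0.91 and 0.93 on the log2 scale. In CD-1 mice 0 of 15 rose and Mcm10, a loader of the replication machinery, fell by 1.74 on the log2 scale (SE 0.43, adjusted p = 0.0279). With the slide as a block in hCAR/hPXR mice, 1 of the 22 replication genes was called higher, as were 16 of the 62 other mitosis genes and 16 of the 36 members.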

How the data were processed

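Each of the 28 liver samples was read on 1 Agilent array with 1 dye. The authors deposited scanner output with a processed intensity per spot, after background and other corrections by Feature Extraction 10.7.3.1, per the file headers. They also deposited a table of log2 values, which differed from log2 processed signal minus the array's 75th percentile by a constant of -0.0233 to 0.0102 per array, so its scale, centring and direction are known. Column medians of that table were -1.737 to -1.298 in CD-1 mice and -3.862 to -2.861 in the other strains. Of its 55821 entries, 55681 matched a probe. Each array had 62976 spots, of which 55681 probes were not controls. Of these probes, 26582 carried 1 of 20145 symbols and 29099 none.

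Levels were log2 processed signal minus the array's 75th percentile, over spots that were not outliers (109 to 430 spots left out per array). A probe was well above background where at least 50% of its kept spots had that mark. The brightest probe over all arrays stood for a gene, which affected 14 members. Tests were two-sided, in limma 3.58.1 (R 4.3.3), on each strain's own arrays. Differences between strains came from 1 fit of all arrays over genes tested in both. The fits were tested on simulated data. Animals of a group are labelled as biological replicates. The labels do not say that same replicate numbers pair animals, so no pairing was used. No per-sample column was left unused. Summed B cell and erythroid marker levels are not reported here.

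The members, lists, motifs and markers were chosen with earlier results of these data known. Given by animal whatever their values were 21 members. In addition, each comparison named the 3 largest and 3 smallest changes, members that fell, members not called where most were, and members whose probes disagreed. Other lists gave up to 4 called genes with the smallest adjusted p. Alternatives were other normalizations, filters, probes, samples, blocks and array weights. Normexp was applied to the median signals and was always followed by quantile normalization. Promoters came from RefSeq (GRCm38.p6), matched by symbol. The figures were drawn in matplotlib 3.10.9.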

Additional observations from a re-analysis of the deposited data

Results flagged for a closer look

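In 5 of 88 combinations of a member and a group, 1 animal lay far from the others, close to 1 in 20, the rate that chance gives for independent combinations. Members on the same arrays are not independent. Only groups of at least 4 animals with the member well above background in all of them were looked at, so no C3H group was. These were hCAR/hPXR controls for Cks2 (control 3 at -0.21, the others 0.42 to 0.88), Foxm1 (control 1 at -0.024, the others -2.70 to -1.89), Cdca8 (control 4 at -1.01, the others -0.42 to -0.01) and Cenpa (control 6 at -2.70, the others -1.25 to -0.38), and the CD-1 control 1 for Mki67 (-1.28, the others -0.10 to 0.11).

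The PB effect differed between strains, by limma's interaction test with adjusted p under 0.05, for 11, 14 and 17 members. Among members well above background on at least 1 array of all 4 groups, the differences in hCAR/hPXR minus CD-1 mice were 2.53 for Ccnb2, 1.55 for Foxm1, 2.001 for Mki67, 2.04 for Hmmr, 2.33 for Ube2c, 1.21 for Spc25, 2.11 for Nusap1 and 2.01 for Kif20a. In C3H minus CD-1 mice they were 3.41 for Ccnb2, 3.36 for Foxm1, 3.91 for Mki67, 4.34 for Hmmr, 2.82 for Birc5, 2.31 for Mad2l1, 4.07 for Ube2c, 1.86 for Pttg1, 2.47 for Spc25 and 3.66 for Kif20a. In hCAR/hPXR minus C3H mice they were -2.22 for Ccna2, -1.91 for Mki67, -2.30 for Hmmr, -3.26 for Plk1, -2.11 for Aurka, -2.55 for Birc5, -1.24 for Cdca8, -2.18 for Cdc20, -1.74 for Ube2c, -2.49 for Pttg1 and -1.89 for Racgap1. For the rest a group lay at background on all its arrays, so the fitted difference is not a measured size: it was 1.32 for Cdca8, 1.96 for Nuf2 and -1.53 for Kif2c in hCAR/hPXR minus CD-1 mice, 2.56 for Cdca8, 3.30 for Cdc20, 2.88 for Nuf2 and 4.45 for Nusap1 in C3H minus CD-1 mice, and -2.81 for Cdk1, -1.86 for Top2a, -1.84 for Melk, -1.89 for Bub1, -1.99 for Cenpe and -2.34 for Nusap1 in hCAR/hPXR minus C3H mice. Strain, dose, duration, carcinogen and slide differ together between these experiments and cannot be told apart.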

How the results depend on the processing

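The count of members called in CD-1 mice (5) was 3 with quantile normalization, 3 with no filter, 1 among genes detected on every array of both groups and 8 with array weights, and 3 to 6 on leaving out 1 animal. In hCAR/hPXR mice (35) it was 20 among genes detected on every array of both groups, where fewer genes were tested, and 16 with the slide as a block, and 35 on leaving out any animal. In C3H mice (37) it was 19 under that filter and 30 to 37 on leaving out 1 animal. For hCAR/hPXR minus CD-1 mice (11) it was 7 with quantile normalization, 24 with no filter, 5 under the filter on both groups and 10 to 13 on leaving out 1 animal, and for C3H minus CD-1 mice (14) it was 30, 7 and 12 to 14 under the last 3 of these. For hCAR/hPXR minus C3H mice (17) it was 3 with quantile normalization, 11 with normexp, 9 under the filter on both groups and 7 to 23 on leaving out 1 animal. Signs turned for Mad2l1 in CD-1 mice (-0.51 with quantile normalization, -0.65 with normexp, -0.29 with the mean of its probes, -0.073 with array weights, -0.36 to 0.81 on leaving out 1 animal) and for Ube2c there (0.27 with normexp, 0.34 with the mean of its probes). They also turned for Pttg1 in hCAR/hPXR mice (0.21 with the mean of its probes, 0.22 with the slide block) and for Cks2 in C3H mice (-0.17 to 0.40 on leaving out 1 animal). For these changes the cause was not tested, except that the filters change how many genes are tested. Birc5 in CD-1 mice was not called with quantile normalization, normexp, no filter or the mean of its probes. Of 1757 values for single members under alternatives, 1606 kept their direction and side of the threshold, 129 no longer passed, 7 newly passed and 15 turned. Fitting replicate numbers as a replicate block called 4 members in CD-1 mice, 35 in hCAR/hPXR mice and 36 in C3H mice. Same-numbered animals correlated at -0.45 to 0.06, -0.13 to 0.27 and 0.04 to 0.18 in that order. In C3H mice each control correlated best with the PB animal of its own number, so a pairing is not excluded there. With that block 1543 of all genes were called in C3H mice, against 2682 without it. Counts of all genes called ran from 905 to 6172 in CD-1 mice against 1900, and in C3H mice from 559 to 8662 against 2682, and were 440 with the slide block against 11643 in hCAR/hPXR mice. Signal over background kept 26 of 48 members out of the CD-1 tests.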
